A study of Mus musculus with 6 samples.

Results

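The translation initiation factors are the proteins that load a ribosome onto an mRNA and set it on the start codon. Their genes were taken as the protein-coding genes of GENCODE M21 whose symbol starts with Eif1, Eif2, Eif3, Eif4, Eif5 or Eif6, leaving out the kinases named Eif2ak, which gave 51 of the 35082 genes with transcripts in the files. Of these 51 genes, 49 had enough counts to be tested beside 12497 genes in all.

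Initiation begins with the small ribosomal subunit, on which eIF1, eIF1A and the multi-subunit eIF3 assemble, and with eIF2, which delivers the initiator tRNA bound to GTP. The eIF4 proteins bind the cap of the mRNA and unwind its leader, eIF5 triggers GTP hydrolysis at the start codon, and eIF2B recharges eIF2 for the next round. Phosphorylation of the alpha subunit of eIF2 blocks that recharging, and the 4E-binding proteins block the cap-binding factor, so both are points at which cells hold initiation back. When initiation stalls, untranslated mRNA gathers in stress granules with small subunits, eIF3, eIF4 factors and the RNA-binding protein G3BP1, the protein targeted in this study.

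Liver mRNA of 6 male mice was sequenced to ask what the loss of G3BP1 in hepatocytes changes under a high-fat diet. The control group (genotype G3BP1f/f, n = 3) and the knockout group (Alb-cre; G3BP1f/f, n = 3) both carried floxed alleles of the gene, and all animals were 8 weeks old at the start and fed a high-fat diet for 20 weeks. The sample titles call the control animals wild-type. The albumin promoter drove Cre, and hepatocytes use that promoter, so other liver cells keep the gene, and RNA came from whole tissue. In such bulk RNA, fewer cells of a type and less RNA per cell cannot be told apart.

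Libraries held 20899135 to 21750007 estimated counts. Levels are given as CPM, counts scaled by the library total and its TMM factor, and differences as log2 of knockout-labelled over control from edgeR's quasi-likelihood test, with the standard error (SE). G3bp1 itself (chromosome 11, 55469685 to 55504838, plus strand, GRCm38) had a log2 difference of -0.18 (SE 0.22, edgeR adjusted p = 0.91) and 95% limits of -0.78 and 0.42. It overlapped between groups, and the sources used here do not name the exons that Cre removes, so the second group is called knockout-labelled. All 8 hepatocyte markers were tested and their summed level was 59773 to 117795 CPM, lowest in knockout-labelled replicate 3. Libraries also differed within groups: mitochondrially encoded genes took 7.22% to 7.64% of counts in the controls against in knockout-labelled replicate 1 took 7.57%, against 9.19% and 10.2% in knockout-labelled replicates 2 and 3. These last 2 libraries also had counts on 36.3% and 37.8% of transcripts, against 30.2% to 31.2% in the other 4. The part of these library differences in the results that follow was not tested, and results are given without single libraries where that moves them.

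No initiation factor gene was called at the gene level. The edgeR test called 0 of 49 members, against 0% of all 12497 genes, and the adjusted p of every member was at least 0.84. On simulated counts this test recovered few genes changed by 1 log2 unit, so differences of the size seen here could hardly have been called. No member had an unadjusted p under 0.05, against 4.55% of all genes. Without knockout-labelled replicate 1 the members with such a p were 6 (Eif3a, Eif3k, Eif4ebp1, Eif4ebp3, Eif4g1 and Eif5a), against 15.8% of all genes. Without control replicate 1 they were 2 (Eif2a and Eif3i), against 8.45%, and by library totals 3 (Eif2b2, Eif3a and Eif4enif1), against 12.1%. DESeq2 called 0 members, against 0.088% of all genes, and gave Eif3k alone an unadjusted p under 0.05, which 5.31% of all genes had. Log2 differences of the members ran from -0.66 to 1.25, 17 above 0 and 32 below, with a median of -0.11. Over all genes the median was 0.01 and 51.6% lay above 0.

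The sign of the members' median depended on the scaling. When libraries were scaled by their totals alone the median of all genes shifted by 0.26 to 0.27, and 42 of the 49 members lay above 0 with a median of 0.16, when 78.9% of all genes did so. In the deposited TPM, a per-length scale that sums to the same total in each library, 43 lay above 0 with a median of 0.22, when 83.9% of all genes lay above 0 and their median was also 0.22. Relative to all genes the members' median was -0.12 with TMM factors, -0.12 with library totals and -0.06 once the trend of each library over length and GC content was taken out.

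Controls and knockout-labelled mice did not overlap for 6 of the 49 members (12.2%), against 9.34% of all genes. Eif2b1, Eif2b5, Eif3c, Eif3j1 and Eif4e2 lay lower in all 3 knockout-labelled libraries than in any control, where 4.55% of all genes did so, and Eif3j2 lay higher, where 4.79% did so. This count rested on the scaling and on single libraries. It was 10 of 49 by library totals, against 19% of all genes, and 12 in TPM, against 20.1%. It was 21 of 49 (42.9%) without knockout-labelled replicate 1, when the share of all genes was 36%, and 17 without control replicate 1, when the share of all genes was 27.9%. With knockout-labelled replicate 1 as the only library of its group it was 18 of 49, against 35.8% of all genes.

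**Figure D1:**
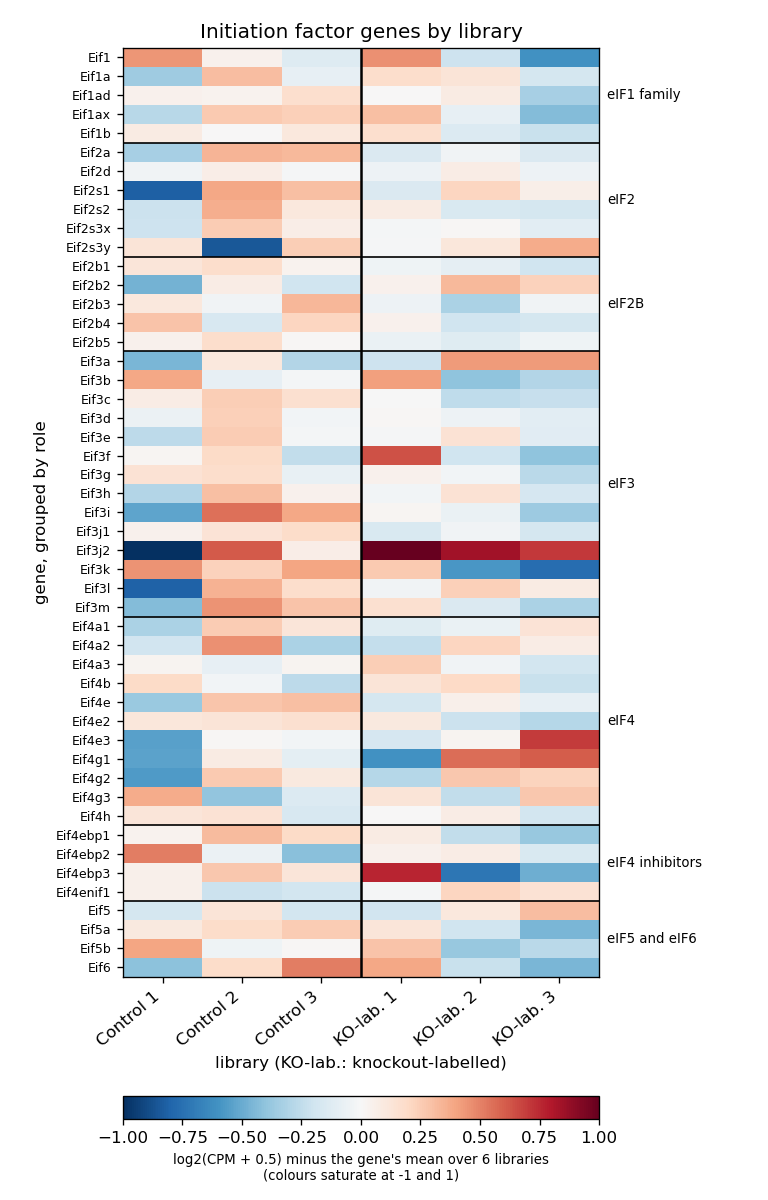
Level of each tested initiation factor gene in each library, as log2(CPM + 0.5) minus the mean of the gene over the 6 libraries (colour, saturating at -1 and 1), with genes grouped by role and the groups divided by a vertical line. Most rows have high and low libraries on both sides of the line. Eif3j2 is highest in the 3 knockout-labelled libraries and lowest in control replicate 1, where it had 0 counts. The other controls also lie above its mean.

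Genes of the eIF1 family, which keep the small subunit scanning until it meets a start codon, had 1 log2 difference above 0 and 4 below, with a median of -0.14. Eif1, the start codon fidelity factor, was the most abundant of all 51 genes per length, at a mean of 792 TPM. It measured 518, 394 and 350 CPM in control mice 1 to 3, against 524, 330 and 251 CPM in the knockout-labelled mice in the same order of replicates (421 ± 87.3 against 369 ± 141, SD, n = 3 each). The highest library of each group was replicate 1 and the groups overlapped, with a log2 difference of -0.19 (SE 0.32, edgeR adjusted p = 0.94). For this gene 37.2% of the 31-base stretches of the leading transcript also occur in another gene, mostly Emd, so its count could be shared. Emd was assigned 164 to 253 counts per library, where Eif1 was assigned 5991 to 12150. Eif1a, a partner of Eif1 on the small subunit, measured 31.2, 49.7 and 37.9 CPM in the controls against 45.3, 43.9 and 35.3 CPM in the knockout-labelled mice. All 3 of these last values lay within the range of the controls (log2 difference 0.07, SE 0.23). The 3 other genes of the family, Eif1ad, Eif1ax and Eif1b, had log2 differences between -0.16 and -0.12.

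The eIF2 class holds the 3 kinds of subunit of eIF2 itself and Eif2a and Eif2d, which can bring an initiator tRNA to the ribosome without it. Of 6 tested genes, 1 lay above 0 and 5 below, with a median of -0.05. Eif2s1, the alpha subunit that stress kinases phosphorylate, measured 15, 35.1 and 33.0 CPM in the controls against 24.2, 31.1 and 27.8 CPM in the knockout-labelled mice, with a mean of 27.7 CPM in both groups. Control replicate 1 was the lowest library and the other controls were the highest. Eif2s2, the beta subunit, had a log2 difference of -0.18 (SE 0.21).

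Eif2s3x and Eif2s3y encode the gamma subunit, which holds GTP and the tRNA, from the X and the Y chromosome. Eif2s3x measured 41.6, 57.5 and 50.4 CPM in the controls against 47.4, 48.4 and 44.6 CPM in the knockout-labelled mice (log2 difference -0.09, SE 0.19). Eif2s3y measured 36.6, 18.4 and 39.9 CPM in the controls against 33.2, 36.2 and 43.5 CPM in the knockout-labelled mice (log2 difference 0.25, SE 0.30). Control replicate 2 had the lowest Eif2s3y and the highest Eif2s3x. That library was also the lowest in Ddx3y, the Y-linked RNA helicase, at 18.1 CPM against 24.3 to 32.4 CPM in the other 5, and in Kdm5d, at 4.49 CPM against 5.26 to 12.7 CPM, but not in Uty, where it had 5.26 CPM and knockout-labelled replicate 1 had 4.92 CPM. Without it the difference of Eif2s3y was -0.02.

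The start sites of these genes are shown because a pyrimidine run at the start of an mRNA marks transcripts whose translation follows growth signals. The run was searched as a C at the RefSeq start followed by 4 bases that are each C or T, on the strand of the gene. It was found in 2 of the 39 members with an entry in the RefSeq promoter table (5.13%), Eif2s3x and Eif3f, and in 2.67% of 17492 protein-coding genes. The 30 bases around the start follow, 15 before it and 15 from it on, with the run in capitals, at chrX:94212637-94212666 (minus), chrY:1010580-1010609 (plus) and chr7:108934400-108934429 (plus) of GRCm38.p6. The run has 11 bases in Eif2s3x and in Eif3f. In Eif2s3y a run of 12 begins 1 base after the start and so was not counted, and the RefSeq start of Eif2s3x lies 58 bases from the start of its nearest GENCODE transcript. A match describes these letters only.
Eif2s3x: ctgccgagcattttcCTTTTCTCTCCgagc
Eif2s3y: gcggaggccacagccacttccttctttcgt
Eif3f: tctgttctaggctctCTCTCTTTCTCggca

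Eif2a measured 21.2, 34.2 and 33.7 CPM in the controls against 24.2, 26.2 and 24.3 CPM in the knockout-labelled mice, a log2 difference of -0.25 (SE 0.22). Control replicate 1 was again the lowest of all 6, and without it the groups did not overlap and the difference was -0.45. In that setting 12.9% of all genes lay lower with no overlap.

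The 5 subunits of eIF2B, the exchange factor that recharges eIF2, lay close together per length, at means from 5.12 TPM for Eif2b3 to 15.1 TPM for Eif2b4. Their log2 differences had a median of -0.23, with 4 below 0 and 1 above. Eif2b1, the alpha subunit, measured 18.3, 18.9 and 17.1 CPM in the controls against 16.2, 15.7 and 14.5 CPM in the knockout-labelled mice (18.1 ± 0.907 against 15.5 ± 0.86, SD, n = 3 each). Eif2b5, the catalytic epsilon subunit, measured 17.4, 19.1 and 17.0 CPM in the controls against 16.1, 15.4 and 16.3 CPM in the knockout-labelled mice. Neither overlapped between groups, and both differences were small, at -0.23 (SE 0.17, edgeR adjusted p = 0.85) for Eif2b1 and -0.16 (SE 0.17, edgeR adjusted p = 0.89) for Eif2b5. When libraries were scaled by their totals alone they were 0.04 and 0.11.

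Eif2b2, the beta subunit, went the other way. It measured 6.60, 9.86 and 8.10 CPM in the controls against 9.67, 11.8 and 11 CPM in the knockout-labelled mice, so that control replicate 2 overlapped knockout-labelled replicate 1 (log2 difference 0.40, SE 0.22, edgeR adjusted p = 0.84). Eif2b3, the gamma subunit, measured 8.68, 7.83 and 10.3 CPM in the controls against 7.77, 6.37 and 7.84 CPM in the knockout-labelled mice (log2 difference -0.29, SE 0.22). Eif2b4, the delta subunit, measured 25.9, 18.9 and 24.7 CPM in the controls against 21.9, 18.5 and 18.7 CPM in the knockout-labelled mice (log2 difference -0.24, SE 0.20). In both, the controls and the knockout-labelled libraries overlapped through control replicate 2 and knockout-labelled replicate 1 or 3.

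The 14 genes of eIF3, the largest initiation factor and the scaffold that binds the small subunit, had a median log2 difference of -0.13, with 5 above 0 and 9 below. Eif3k, a small subunit outside the core of the complex (ENSMUSG00000053565, chromosome 7, 28971372 to 28981864, minus strand, GRCm38), had the lowest p of the members. It measured 91.5, 78.5 and 88.0 CPM in the controls against 80.2, 44.3 and 39.1 CPM in the knockout-labelled mice. Knockout-labelled replicate 1 lay among the controls, whereas replicates 2 and 3 lay far below every control. The log2 difference was -0.66 (SE 0.29), with an edgeR p of 0.051 before and 0.84 after adjustment over all genes. It was -1.05 without knockout-labelled replicate 1 and -0.47 without replicate 3, and -0.39 with the length and GC trend removed. The mean transcript length of Eif3k is in the shortest class of genes, those of at most 800 bases, whose median over all genes was -0.41.

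Eif3c, a core subunit (chromosome 7, 126546455 to 126566411, minus strand), measured 75.8, 85.4 and 80.3 CPM in the controls against 71.8, 60.2 and 61.3 CPM in the knockout-labelled mice (80.5 ± 4.81 against 64.4 ± 6.44, SD, n = 3 each). The groups did not overlap, and the log2 difference was -0.32 (SE 0.18, edgeR adjusted p = 0.84). Unlike Eif3k, Eif3c lay further from 0 once the length and GC trend was taken out, at -0.46, and its unadjusted p was then under 0.05.

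Eif3j1 and Eif3j2, which both encode the loosely bound j subunit, did not overlap between groups, in opposite directions. Eif3j1 measured 49.2, 52.5 and 54.3 CPM in the controls against 42.8, 46.6 and 42.1 CPM in the knockout-labelled mice (log2 difference -0.25, SE 0.17, edgeR adjusted p = 0.85). Eif3j2 had 0, 159 and 122 counts in the controls against 347, 232 and 222 counts in the knockout-labelled mice (log2 difference 1.25, SE 0.97, edgeR adjusted p = 0.86). That difference was 0.66 without control replicate 1, the library at 0 counts, 1.97 without control replicate 2, and 3.31 with limma voom. These genes are near copies: 94.9% of the 31-base stretches of Eif3j2 and 41.3% of those of Eif3j1 occur in another gene, in each case mostly the other j gene, so the split between them is uncertain. Their sum measured 49.2, 61.2 and 60.1 CPM in the controls against 57.8, 56.8 and 51.4 CPM in the knockout-labelled mice. The sum overlapped between groups, with means of 56.8 ± 6.60 and 55.3 ± 3.46 CPM (SD, n = 3 each).

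Among the other eIF3 genes, the log2 differences ran from -0.34 for Eif3i to 0.44 for Eif3a, the largest subunit by gene product, and every one overlapped between groups. Eif3a measured 32.7, 48.6 and 36.8 CPM in the controls against 38.9, 60.5 and 60.7 CPM in the knockout-labelled mice. Its high libraries were knockout-labelled replicates 2 and 3, and the adjusted p was 0.84 (edgeR). Eif3i, Eif3l and Eif3m shared a low control replicate 1: Eif3i measured 30.1 CPM there against 64.3 and 57.5 CPM in the other controls and 44.4, 41.7 and 33.8 CPM in the knockout-labelled mice. Without that library the Eif3i groups did not overlap, where 12.9% of all genes lay lower in this way. Its difference was then -0.61, against -0.34 with that library. Over the 14 genes, the median deviation from each gene's mean was -0.16, 0.24 and 0.06 in the controls against 0.02, -0.04 and -0.20 in the knockout-labelled mice, on the log2 scale.

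**Figure D2:**
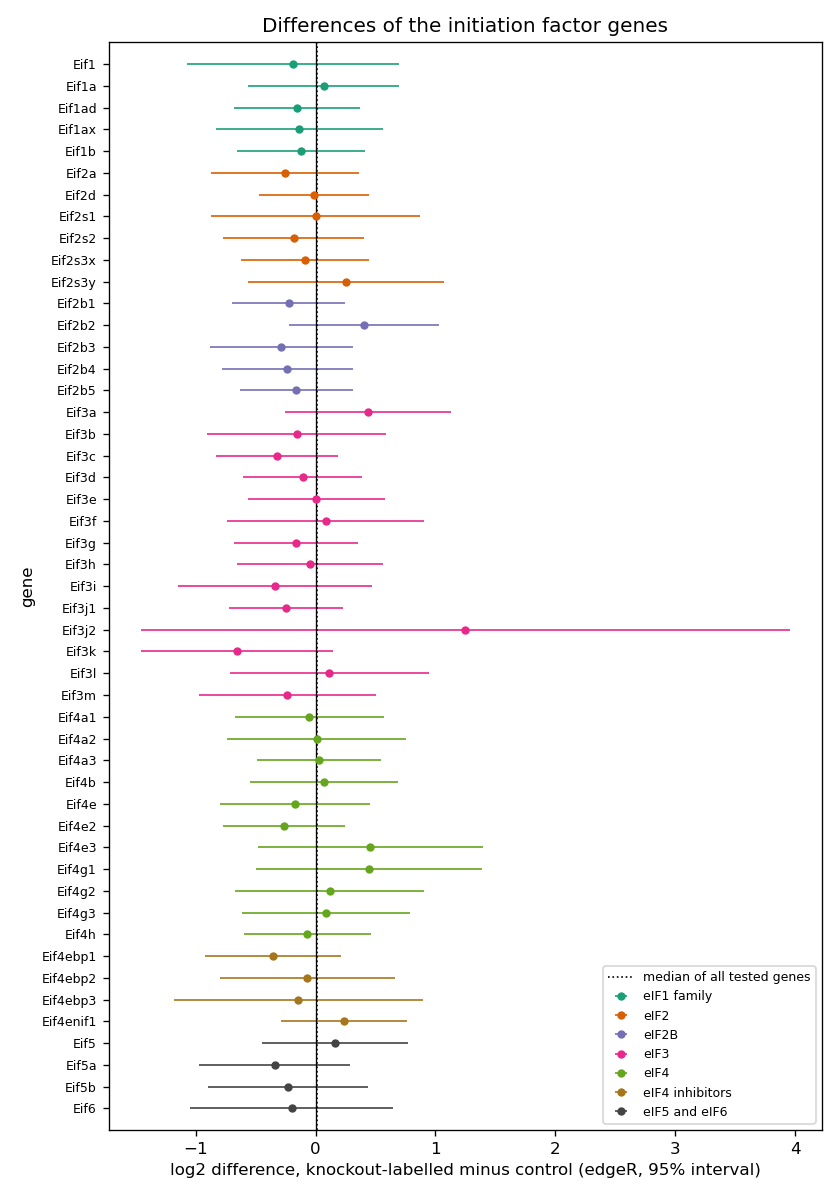
Log2 difference of each tested initiation factor gene, knockout-labelled minus control (edgeR, x axis), with its 95% interval (horizontal line) and coloured by role. Every interval includes 0, and the widest is that of Eif3j2, from -1.46 to 3.95.

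The 12 genes of the eIF4 class bind the cap (Eif4e genes), join cap and ribosome (Eif4g genes) or unwind RNA (Eif4a genes with Eif4b and Eif4h), and Eif4a3, a relative of the helicases, belongs to the exon junction complex. Of the 11 tested, 7 lay above 0 and 4 below, with a median of 0.03. Eif4e1b, the egg form of the cap-binding protein, had 0 counts in all 6 libraries, which allows up to 0.126 to 0.164 CPM per library. Eif4a2, the helicase with the highest level per length, at a mean of 95 TPM, measured 169, 264 and 154 CPM in the controls against 163, 224 and 203 CPM in the knockout-labelled mice (log2 difference 0.01, SE 0.27). Eif4a1, the other helicase of the cap complex, measured 129, 192 and 176 CPM in the controls against 148, 154 and 177 CPM in the knockout-labelled mice (log2 difference -0.05, SE 0.22). All 6 knockout-labelled values lay within the range of the controls of the same gene. Of the 31-base stretches of Eif4a1, 67.5% occur in another gene, mostly a pseudogene with 0 counts in every library, and 17 of the 51 members share at least 10% in this way, so their counts depend on how reads were divided.

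Eif4e, the cap-binding protein of general initiation, measured 24.1, 38.1 and 38.7 CPM in the controls against 27.7, 32.4 and 29.6 CPM in the knockout-labelled mice (log2 difference -0.17, SE 0.23). The direction turned on the per-length scale, where it measured 3.30, 6.32 and 6.33 TPM in the controls against 6.67, 8.81 and 10.8 TPM in the knockout-labelled mice. The groups did not overlap on that scale, and the difference in log2(TPM + 1) was 0.65. On it the median of all genes was 0.22, and 19.8% of them lay higher with no overlap. Its leading transcript of 4991 bases held 99.1%, 99.2% and 99.3% of the counts of the gene in the controls against 96.6%, 93.2% and 88.9% in the knockout-labelled mice. Shorter transcripts weigh more in TPM than in counts, and the part of this in the turn was not tested.

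Eif4e2, a cap-binding protein that does not recruit the scaffold and holds mRNAs back, measured 33.6, 33.9 and 34.7 CPM in the controls against 33.1, 26.6 and 25.3 CPM in the knockout-labelled mice. The controls had a mean of 34.1 ± 0.554 CPM (SD, n = 3), and knockout-labelled replicate 1 missed them by less than 1 CPM (log2 difference -0.27, SE 0.18, edgeR adjusted p = 0.85). Eif4e3, an atypical cap-binding protein, was low, at 2.45, 3.83 and 3.72 CPM in the controls against 3.32, 3.89 and 6.50 CPM in the knockout-labelled mice. Knockout-labelled replicate 3 stood above the other 5 libraries (log2 difference 0.46, SE 0.34), and without it the difference was 0.11.

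Eif4g1, the main scaffold (chromosome 16, 20668313 to 20692884, plus strand), measured 68.5, 105 and 92.9 CPM in the controls against 65.2, 147 and 152 CPM in the knockout-labelled mice. Knockout-labelled replicates 2 and 3 were above every control and replicate 1 was below them all (log2 difference 0.45, SE 0.34, edgeR adjusted p = 0.85). With the effective transcript length of the gene as an offset the difference was -0.02, and against knockout-labelled replicate 1 alone it was -0.46. Eif4g2, a scaffold that lacks the site for Eif4e, measured 159, 282 and 253 CPM in the controls against 193, 284 and 275 CPM in the knockout-labelled mice, with replicate 1 the lowest of each group (log2 difference 0.12, SE 0.28).

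The inhibitors of eIF4 had a median of -0.11, with 1 gene above 0 and 3 below. Eif4ebp1, a repressor that the growth kinase mTOR releases from Eif4e, measured 68.6, 83.8 and 76.5 CPM in the controls against 71.1, 56.5 and 51.5 CPM in the knockout-labelled mice. Its groups overlapped through control replicate 1 and knockout-labelled replicate 1 (log2 difference -0.35, SE 0.20, edgeR adjusted p = 0.84). Eif4ebp2, its paralogue, measured 150, 101 and 78.6 CPM in the controls against 109, 111 and 94.9 CPM in the knockout-labelled mice (log2 difference -0.07, SE 0.26). The knockout-labelled libraries lay inside the wide range of the controls.

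Eif4ebp3, the third 4E-binding protein and the inhibitor with the highest level per length, at a mean of 58.2 TPM, measured 37.2, 43.3 and 39.0 CPM in the controls against 61.2, 21.6 and 25.3 CPM in the knockout-labelled mice. Knockout-labelled replicate 1 was the highest of all 6 libraries and replicates 2 and 3 the lowest, around a log2 difference of -0.14 (SE 0.37). Without replicate 1 the difference was -0.77, and without replicate 2 it was 0.12. Of its 31-base stretches, 66.4% occur in another gene, mostly one that shares its locus, so its count is uncertain. Eif4enif1, which carries Eif4e into the nucleus and to processing bodies, measured 13.9, 11.4 and 11.7 CPM in the controls against 13.2, 15.6 and 14.8 CPM in the knockout-labelled mice (log2 difference 0.24, SE 0.19).

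The last class acts late. Eif5, which makes eIF2 hydrolyse its GTP, measured 131, 162 and 130 CPM in the controls against 130, 160 and 184 CPM in the knockout-labelled mice (log2 difference 0.16, SE 0.22). Eif5a, which carries the modified residue hypusine and helps ribosomes through difficult peptide bonds (ENSMUSG00000078812, chromosome 11, 69916714 to 69921958, minus strand), was second to Eif1 per length, at a mean of 178 TPM. It measured 260, 276 and 290 CPM in the controls against 264, 211 and 176 CPM in the knockout-labelled mice (275 ± 15.1 against 217 ± 44.3, SD, n = 3 each). Knockout-labelled replicate 1 lay among the controls and the other 2 below them (log2 difference -0.34, SE 0.23, edgeR adjusted p = 0.85). Its paralogue Eif5a2 had 2, 3 and 6 counts in the controls against 4, 6 and 7 counts in the knockout-labelled mice and was not tested. Eif5b, which joins the ribosomal subunits, and Eif6, which keeps the large subunit apart, had log2 differences of -0.23 (SE 0.24) and -0.20 (SE 0.31).

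Ratios between paralogues use no scaling between libraries, since both genes are read in the same library. For 6 pairs the log2 ratio of counts was compared by an exact permutation test over the 6 libraries, testing both directions, which cannot give a p below 0.1 for 3 against 3. The largest difference was that of Eif5a to Eif5a2, at 10.7, 10.3 and 9.77 in the controls against 10.3, 9.41 and 9.04 in the knockout-labelled mice, a difference of -0.68 (exact p = 0.2, adjusted over the 6 pairs 0.75), and it rests on the few counts of Eif5a2. The ratio of Eif2s3x to Eif2s3y was 1.64 in control replicate 2 and 0.04 to 0.51 in the other 5 libraries, and the groups differed by -0.40 (exact p = 0.7, adjusted 0.8). Eif4ebp1 to Eif4ebp2 differed by -0.34 (exact p = 0.4, adjusted 0.75). Eif4g1 to Eif4g2 differed by 0.23 (exact p = 0.4, adjusted 0.75), and by -0.35 in TPM. Eif4e to Eif4e2 differed by 0.14 (exact p = 0.5, adjusted 0.75), and Eif4a1 to Eif4a2 by -0.07 (exact p = 0.8, adjusted 0.8). The groups overlapped in all 6 ratios.

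**Figure D3:**
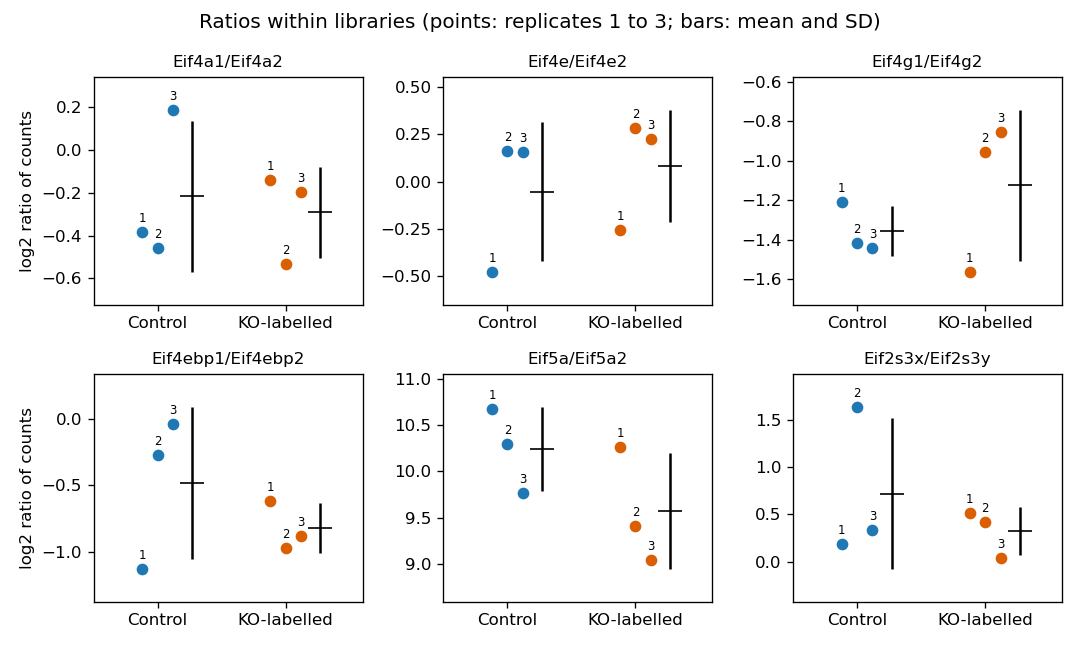
Log2 ratio of the counts of 6 pairs of initiation factor genes in each library (points, numbered by replicate), with the mean and SD of each group (bars). The points of the groups overlap in every panel, and control replicate 2 stands apart at 1.64 in the ratio of Eif2s3x to Eif2s3y.

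The libraries also differed in which transcript of a factor carried the counts. Of 332 member transcripts in the files, 96 had a mean of at least 30 counts, and 25 genes had 2 or more of these. The mean transcript length of a gene, weighted by counts, was above its mean over the 6 libraries in 5, 17 and 13 of these 25 genes in control replicates 1 to 3 and in 3, 22 and 21 in knockout-labelled replicates 1 to 3. Control replicate 1 and knockout-labelled replicate 1 thus lay on the short side, and knockout-labelled replicates 2 and 3 on the long side. The median log2 deviations were -0.03, 0.01 and 0.00 in the controls against -0.03, 0.03 and 0.05 in the knockout-labelled mice. Over 4282 protein-coding genes they were -0.02, 0.01 and -0.00 in the controls against -0.02, 0.02 and 0.03 in the knockout-labelled mice, so the order of the libraries was not particular to the initiation factors.

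Eif5a gave the clearest view of this, in a pair of protein-coding transcripts of almost the same length that start 301 bases apart. The transcript from the downstream start, Eif5a-213 (1281 bases), held 90.1%, 55.9% and 63.7% of the counts of the gene in the controls against 92.2%, 33.8% and 26.9% in the knockout-labelled mice. The one from the upstream start, Eif5a-210 (1343 bases), held 9.27%, 42.3% and 34.1% in the controls against 7.37%, 63.3% and 68.3% in the knockout-labelled mice. In replicate 1 of both groups almost all counts were assigned to Eif5a-213, and in knockout-labelled replicates 2 and 3 most were assigned to Eif5a-210. These are estimated counts, divided between overlapping transcripts. The uncertainty of that division is not given with the deposited values, here or for the transcripts below, so the use of either start was not measured directly. The exact 95% binomial intervals, which cover counting error only, were at most a few percentage points wide, from 8.47% to 10.1% for the 9.27%. The transcripts named here and in the next paragraphs were chosen after their values were seen.

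The sequences around these Eif5a starts are shown because they are where the transcripts part. The RefSeq start of Eif4g1 shown with them lies 22 bases before the GENCODE start of its nearest transcript, Eif4g1-202. The start of Eif4g1-222, the other main transcript named below, is not shown. Capitals mark CACGTG, the core of the E-box bound by MYC and by clock and lysosomal regulators, which is its own reverse complement. The upstream Eif5a start (chr11:69921372-69921476, minus) has it 74 bases before the start and the downstream one (chr11:69921071-69921145, minus) has none in the stretch shown, while Eif4g1 (chr16:20672657-20672747, plus) has it 54 bases before the RefSeq start and again just after it. All are from RefSeq on GRCm38.p6, written 5′ to 3′ on the strand of the gene.
Eif5a, start of Eif5a-210: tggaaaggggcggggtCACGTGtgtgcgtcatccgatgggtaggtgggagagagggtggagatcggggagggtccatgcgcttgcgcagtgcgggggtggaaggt
Eif5a, start of Eif5a-213: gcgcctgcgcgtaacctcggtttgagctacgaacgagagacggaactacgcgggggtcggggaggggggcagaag
Eif4g1: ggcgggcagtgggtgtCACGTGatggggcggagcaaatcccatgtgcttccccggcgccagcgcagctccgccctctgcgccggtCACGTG

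Over the RefSeq windows, from 250 bases before to 50 after each start, CACGTG stood in 10 of the 39 matched initiation factor genes (25.6%), against 8.91% of 17492 protein-coding genes. The 10 were Eif1b, Eif3a, Eif3f, Eif3k, Eif4a1, Eif4e, Eif4g1, Eif4h, Eif5a and Eif5a2. Apart from Eif5a2, which was not tested, their log2 differences ran from -0.66 for Eif3k to 0.45 for Eif4g1. The match describes letters and does not show binding.

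Eif4g1 differed by library in transcripts of very different length. Eif4g1-222, of 2200 bases and annotated as a target of nonsense-mediated decay, held 96.4%, 56.1% and 76.4% of the counts in the controls against 90.9%, 20.4% and 18.4% in the knockout-labelled mice. Eif4g1-202, a protein-coding transcript of 5394 bases, held 0%, 2.07% and 0% in the controls against 0%, 44.7% and 44.4% in the knockout-labelled mice. Eif4g1-202 thus had almost all of its counts in knockout-labelled replicates 2 and 3. The summed level of the gene was highest in the same libraries. A share of 0 allows up to 0.286% in control replicate 1 (exact 95% limit). Other long coding forms were divided in other ways. Eif4g1-217, of 5114 bases, held 3.06%, 9.39% and 7.71% in the controls and 0% in every knockout-labelled library. Eif4g1-203, of 5440 bases, had 0, 0 and 59 counts in the controls against 13, 0 and 254 in the knockout-labelled mice. Eif4g1-210, which retains an intron, held 0%, 30.7% and 12.4% in the controls against 7.67%, 32.5% and 26.1% in the knockout-labelled mice.

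Shorter forms of several other factors followed the same libraries. Eif2a-207, annotated for decay, held 97.9%, 67.7% and 87.0% in the controls against 96.9%, 55.2% and 41.7% in the knockout-labelled mice. Eif2b5-203, which starts 5946 bases into the gene, held 74.0%, 30.4% and 40.2% in the controls against 69.7%, 13.7% and 6.47% in the knockout-labelled mice. In both genes the other main transcript is the longer one, and knockout-labelled replicates 2 and 3 had the lowest share of the short form.

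Eif6-205, a fragment of 402 bases with no coding annotation, held 45.3%, 19.0% and 24.8% of Eif6 counts in the controls against 38.8%, 9.50% and 6.48% in the knockout-labelled mice. Eif3m-202 held 62.7%, 20.4% and 27.2% in the controls against 53.0%, 18.2% and 18.0% in the knockout-labelled mice. Eif4a3-203 held 57%, 23.9% and 32.1% in the controls against 55.7%, 16.3% and 13.9% in the knockout-labelled mice. In each of these 3 genes replicate 1 of both groups had the highest share.

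Eif4enif1-204 was different, at 67.4%, 61.8% and 71.9% in the controls against 76.6% in knockout-labelled replicate 1, and 0% in knockout-labelled replicates 2 and 3. The counts of those 2 libraries lay on Eif4enif1-203 and Eif4enif1-201, which are longer, and the level of the gene in them was 15.6 and 14.8 CPM.

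Over all members, transcripts annotated as processed, with no coding sequence, took 9.44%, 4.50% and 5.17% of counts in the controls against 9.63%, 3.45% and 3.32% in the knockout-labelled mice. Over all protein-coding genes these shares were 2.39%, 1.39% and 1.81% in the controls against 2.55%, 1.76% and 1.68% in the knockout-labelled mice, also highest in replicate 1 of both groups. The member share rested largely on 1 transcript of Eif1, Eif1-202 of 383 bases. It had 3511, 1543 and 1639 counts in the controls against 4488, 1400 and 1200 in the knockout-labelled mice. Retained-intron transcripts took 0.96%, 1.16% and 0.88% of member counts in the controls against 1.13%, 2.39% and 3.18% in the knockout-labelled mice. Over all protein-coding genes the order was another, at 3.10%, 1.39% and 2.09% in the controls against 3.32%, 2.03% and 2.08% in the knockout-labelled mice. Few transcripts carried the retained-intron counts of the members. Eif4g1-210 had 0, 591 and 242 counts in the controls against 116, 1078 and 947 in the knockout-labelled mice. Eif5b-202 had 200, 26 and 88 counts in the controls against 270, 79 and 250 in the knockout-labelled mice. The edgeR test over 22297 transcripts called 0 of 109 member transcripts, against 0% of all, with 2 at an unadjusted p under 0.05, against 2.8% of all. Tested on simulated data it recovered no changed transcript, so this 0 says nothing about transcript use. Of the 109 transcripts, 10 had no overlap between groups (9.17%), against 8.3% of all transcripts, and 8 of these lay lower, against 4.18%.

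**Figure D4:**
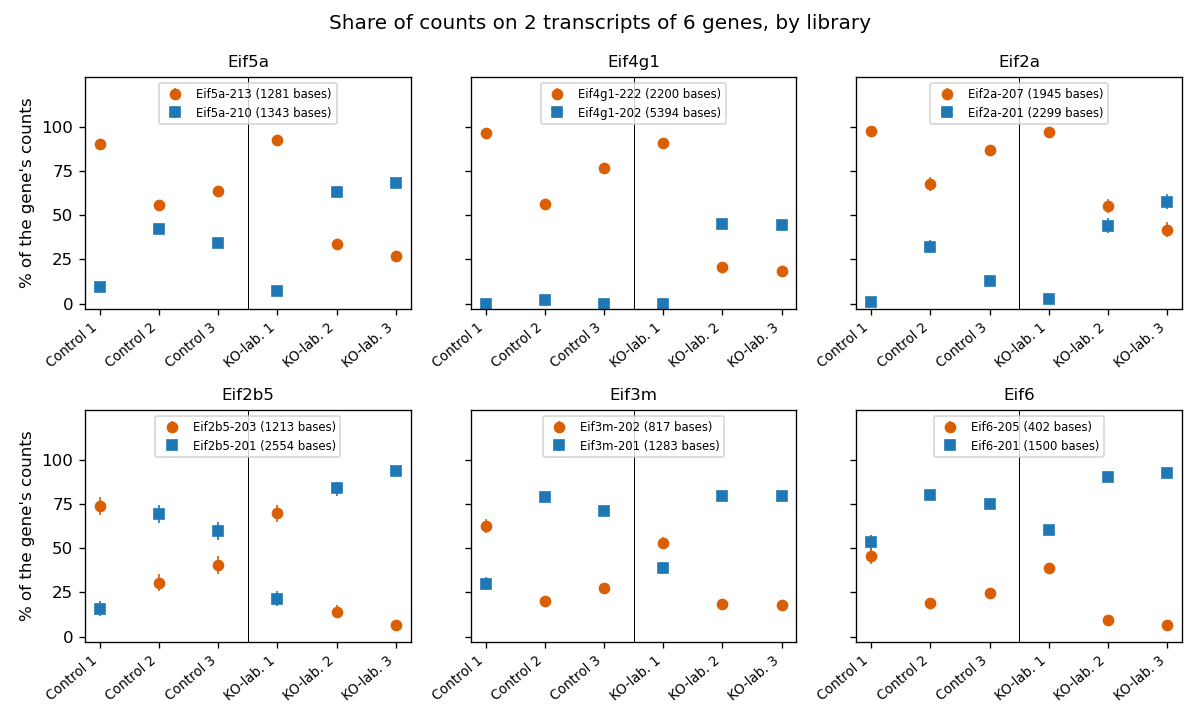
Share of the counts of a gene, in percent, on 2 of its transcripts in each library for 6 initiation factor genes, with controls left and knockout-labelled libraries right of the line and exact 95% binomial intervals as bars. The shorter transcript (circles) is highest in replicate 1 of both groups and lowest in knockout-labelled replicates 2 and 3 in all 6 panels.

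The log2 differences of the members were also set against transcript length. Across the 49 genes the log2 difference had a Pearson correlation of 0.24 and a Spearman correlation of 0.31 with log2 transcript length, and across all 12497 genes these were 0.36 and 0.41. These are correlations across genes that share the same 6 libraries, and genes are not independent replicates. Of the 5 members of at most 800 bases 1 lay above 0, as did 13.2% of all genes of that length. Of the 12 members of 800 to 1600 bases 2 did, where 29.5% of genes did, and of the 20 of 1600 to 3200 bases 10 did, where 53.6% did. Of the 12 members over 3200 bases 4 lay above 0, where 70.3% of genes did, and their median was -0.08 where that of the 4172 genes was 0.16. With that trend over length and GC content removed, the correlations over the members were -0.25 and -0.35, and 10 of 49 members did not overlap between groups (20.4%), against 8.42% of all genes. Eif3c and Eif3j1 then had an unadjusted p under 0.05, as did 3.68% of all genes, and 0 members were called by edgeR.

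**Figure D5:**
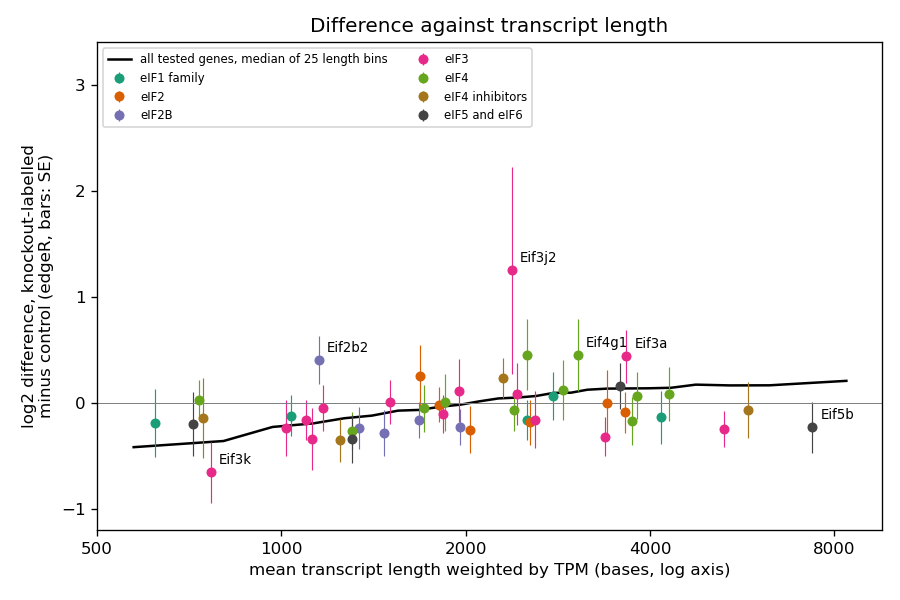
Log2 difference of each tested initiation factor gene (points, coloured by role, bars show SE) against its mean transcript length on a log axis, with the running median of all tested genes (black line). The line climbs with length, and Eif3k, among the shortest, lies lowest, while long members such as Eif5b lie below the line.

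Regulators and partners of the initiation factors were described from lists. Of 17 tested regulators, kinases and phosphatases of the eIF2 and mTOR branches, 10 lay above 0 and 7 below, with a median of 0.11, and edgeR called 0. Eif2ak3, the kinase PERK that phosphorylates the eIF2 alpha subunit under stress of the endoplasmic reticulum, measured 3.57, 3.07 and 4.05 CPM in the controls against 4.01, 7.48 and 5.74 CPM in the knockout-labelled mice (log2 difference 0.69, SE 0.29, edgeR p 0.046 before and 0.84 after adjustment). Knockout-labelled replicate 1 lay just under the highest control. Eif2ak4, the kinase GCN2 that senses uncharged tRNA, measured 2.45, 2.52 and 2.76 CPM in the controls against 2.93, 3.89 and 3.73 CPM in the knockout-labelled mice (log2 difference 0.45, SE 0.26) and was the 1 regulator of 17 with no overlap, where 4.79% of all genes lay higher in this way. Larp1, which represses mRNAs with a pyrimidine run at the start, and Ppp1r15b, which directs the removal of the phosphate from eIF2 alpha, had log2 differences of 0.40 and -0.33.

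Of 18 tested cofactors, such as the poly(A)-binding proteins and the enzymes that modify Eif5a, 7 lay above 0 and 11 below, with a median of -0.06, and edgeR called 0. Dohh, the enzyme that completes hypusine on Eif5a, measured 11.1, 14.5 and 10.7 CPM in the controls against 10.1, 10.5 and 8.64 CPM in the knockout-labelled mice (log2 difference -0.31, SE 0.21). Dohh and Bzw1 (-0.17), 2 of the 18, lay lower with no overlap, as 4.55% of all genes did, and Pabpc4 and Dhx29 had log2 differences of 0.27 and 0.51. Of 11 tested elongation and release factors, 4 lay above 0 and 7 below, with a median of -0.16, and edgeR called 0. Their lowest p was that of Eef1d, at 119, 111 and 113 CPM in the controls against 117, 72.0 and 53.7 CPM in the knockout-labelled mice (log2 difference -0.50, SE 0.29). As in Eif3k and Eif5a, knockout-labelled replicate 1 lay with the controls. Eef1g, Eef1b2 and Etf1 had log2 differences of -0.35, -0.34 and -0.21.

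Markers of other liver cells varied between libraries beside these values. All 10 markers of Kupffer cells lay below 0 with a median of -0.61, and their summed level was 255, 376 and 800 CPM in the controls against 364, 256 and 314 CPM in the knockout-labelled mice, so that control replicate 3 alone stood above the rest. All 5 erythroid markers lay below 0 with a median of -0.97, at 727 to 1678 CPM in the controls against 438 to 1106 CPM in the knockout-labelled mice. Endothelial markers had a median of 0.21, stellate cell markers 0.05, cholangiocyte markers -0.47, neutrophil markers -0.67, lymphocyte markers 0.02, proliferation genes -0.10 and hepatocyte markers -0.01. Their part in the differences of the initiation factors was not tested.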

How the data were processed

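The authors deposited, per the file headers, an estimated count, a TPM value, a length and an effective length for 115221 transcripts in each library, in Salmon's layout. The sources used here do not give the Salmon version or the transcriptome. The build GRCm38 and the tools RSEM 1.2.8, Bowtie2 2.2.5 and DESeq are named, with no role, per the submitters' processing notes. The implied fragment length was exactly 250 bases in knockout-labelled replicate 1 and 242 to 262 in the others, so TPM of short transcripts in that library was set differently. Whether the division of its counts between transcripts was touched as well was not tested.

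Of the transcripts, 113664 matched GENCODE M21 without their version, and 1557 (at most 0.268% of counts) were left out. Deposited counts were summed over 35082 genes and rounded. Genes passing filterByExpr (12497) were scaled with TMM and tested with edgeR 4.0.16 in R 4.3.3 (quasi-likelihood test, two-sided, Benjamini-Hochberg over all genes, threshold 0.05). SE is the absolute log2 difference over the square root of F, and intervals use 4 residual degrees of freedom. The replicates are described as biological in the labels. DESeq2 1.42.0 and limma 3.58.1 were alternatives, with other scalings, filters, offsets, each library left out and the replicate number as a block. The length and GC trend was fitted by loess (span 0.5, degree 2). Strand was not stated, so overlapping genes cannot be told apart. The scripts were tested on simulated data.

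Genes named in each role class are the one with the highest mean TPM, those with the largest positive and negative difference, every gene with no overlap or an unadjusted p under 0.05, and 6 paralogue pairs, with up to 4 genes of smallest p per pathway list. Others are named for their role, after their values were seen. The members, lists and tests were chosen with earlier results of these data known.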

Additional observations from a re-analysis of the deposited data

How the results depend on the processing

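No gene-level setting called a member. The genes listed below as turned, or with a range that crosses 0, are those of the naming rule, and other members turned as well. When libraries were scaled by totals alone, 42 members lay above 0, the median was 0.16 and 10 members did not overlap. In that setting those turned were Eif1 (0.069), Eif2a (0.0031), Eif2b1 (0.038), Eif2b4 (0.015), Eif2b5 (0.11), Eif2s3x (0.17), Eif3j1 (0.011), Eif4a1 (0.21), Eif4e (0.087), Eif4ebp2 (0.20), Eif4ebp3 (0.11) and G3bp1 (0.075). On log2(TPM + 1) 43 members lay above 0, the median was 0.22 and 12 did not overlap, and those turned were Eif1 (0.14), Eif2a (0.071), Eif2b1 (0.16), Eif2b4 (0.12), Eif2s3x (0.25), Eif3c (0.034), Eif3j1 (0.090), Eif4a1 (0.36), Eif4e (0.65), Eif4e2 (0.017), Eif4ebp1 (0.029), Eif4ebp2 (0.31), Eif4ebp3 (0.071) and G3bp1 (0.15), and the Eif4g1 to Eif4g2 ratio (-0.35). All genes shifted up by 0.26 between TMM factors and totals, and the cause of the other turns was not tested. An effective length offset turned Eif4a1 (0.0095), Eif4e (0.37) and Eif4g1 (-0.019). With the length and GC trend removed 10 members did not overlap, and Eif1 (0.067), Eif1a (-0.020), Eif4a2 (-0.023) and Eif4ebp3 (0.078) turned. Eif4a2 was -0.012 with RLE factors and with DESeq2.

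Against knockout-labelled replicate 1 alone 18 members did not overlap, as fewer samples allow, and those turned were Eif1 (0.31), Eif4a2 (-0.27), Eif4e3 (-0.011), Eif4ebp3 (0.61), Eif4g1 (-0.46), Eif4g2 (-0.27), Eif5 (-0.13) and G3bp1 (0.14). With 1 library in that group, it is assumed to vary like the controls. With each library left out in turn, 14 to 21 members lay above 0, the median was -0.15 to -0.03 and 7 to 21 did not overlap. For the genes of that rule, the ranges that cross 0 were -0.54 to 0.022 for Eif1, -0.080 to 0.26 for Eif1a, -0.21 to 0.026 for Eif2s3x, -0.022 to 0.46 for Eif2s3y, -0.21 to 0.068 for Eif4a1, -0.13 to 0.28 for Eif4a2, -0.26 to 0.22 for Eif4ebp2, -0.77 to 0.12 for Eif4ebp3 and -0.094 to 0.29 for Eif4g2. Among the log2 ratios they were -0.19 to 0.13 for Eif4a1 to Eif4a2, -0.077 to 0.31 for Eif4e to Eif4e2 and -0.67 to 0.061 for Eif2s3x to Eif2s3y.

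With the replicate number as a block Eif3j2 was 1.73, the median was -0.10, 18 members lay above 0, 6 did not overlap and 0 were called. Same-numbered libraries correlated at 0.20, 0.27 and -0.14 in their deviations from the group means, and not each correlated best with its own number. With 3 libraries per group these values cannot decide whether the numbers pair the samples. Depth allows 3 counts, 0.126 to 0.164 CPM, which limits Eif4e1b and Eif5a2.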
